A study of Homo sapiens with 6 samples.

Results

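Transcript levels of 50 ribosome biogenesis genes with MYC-driven members were described by RNA sequencing of HCT116, a line of human colon cancer cells. The members were chosen by gene symbol, with earlier results of these data known, and all 50 were found among the 31628 genes of the table. Shares of members set beside those of all genes are therefore descriptive and do not test the set. They hold 47 genes of rRNA synthesis, rRNA processing, ribosome assembly and linked nuclear or mitochondrial steps, together with SRM, ODC1 and SLC19A1, genes of polyamine synthesis and folate uptake. In every library the cells carried ENL, a reader of acetylated histones encoded by MLLT1, fused to an auxin-inducible degron, and stably expressed the plant F-box protein AtAFB2. The cells were selected with puromycin and blasticidin after transfection, and the number of clones behind the libraries was not stated. The washout group received 500 um (as the labels write it) of the auxin IAA for 3 h, was rinsed with PBS and grown on for 48 h without IAA. The IAA group received the same dose for 3 h and was then harvested. The control group had the same fused ENL and AtAFB2 and received no IAA. Each group had 2 libraries, and what a replicate number stands for was not stated, so the p-values measure only the spread between these samples, which may be technical.

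Ribosomes are built mainly in the nucleolus. RNA polymerase I copies the rRNA precursor, small nucleolar RNPs of the box C/D and box H/ACA classes guide its methylation and pseudouridylation, and large assemblies of proteins and helicases cut and fold it into the small and large subunits. MYC is a transcription factor that binds the E-box CACGTG with its partner MAX and is known to raise transcription of genes at each of these steps, as well as of polyamine and nucleotide synthesis genes. It is strongly expressed in colon cancer cells with an active WNT pathway.

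In each library 8220 to 8406 genes reached 1 FPKM, the deposited unit of reads scaled by gene length and library total. The totals, 16440000 to 16770000 reads, were inferred from the steps of the FPKM values and annotated gene spans. Reads recovered from these steps summed over genes to 17185646 to 17484603 per library, above every inferred total. The inferred totals are therefore not a measured depth, and the cause of this mismatch was not tested. The replicates of a group correlated at a Pearson's r of 0.9914 after washout, 0.9917 with IAA and 0.9926 in control, over genes, which are not independent replicates. Of 8 epithelial markers 7 averaged at least 1 FPKM, and CEACAM5 was listed at 0 in all libraries. Of 16 matched fibroblast, endothelial and blood markers 0 averaged 1 FPKM, 2 were at 0 in every library, and their sum was 0.614 to 0.875 FPKM, most of it COL1A1. The summed epithelial markers, mainly KRT18 and KRT19, came to 328 and 343 FPKM after washout, 275 and 272 FPKM with IAA, and 340 and 350 FPKM in control. This sum was lower with IAA than in both other groups, as were EPCAM, KRT8, KRT18 and KRT19 each. CLDN4 went the other way against control, with 5.15 and 5.56 FPKM with IAA and 5.13 and 5.14 FPKM in control. So did VIL1, with 1.05 and 1.23 FPKM with IAA and 0.979 and 0.860 FPKM in control, while CDH1 overlapped between these groups. The part of these markers in the results was not tested. As these are bulk libraries, fewer cells of a type and less RNA per cell cannot be told apart.

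MYC itself (ENSG00000136997.10) had 101 and 101 FPKM after washout, 60.6 and 62.9 FPKM with IAA, and 106 and 110 FPKM in control. Both IAA libraries lay far below the other 4, and MYC fell to 0.570 of the control mean with IAA, a log2 change of -0.80 (SE 0.040, limma on log2(FPKM + 1), Benjamini-Hochberg adjusted p = 0.00297). After washout it was 1.63 times the IAA mean (log2 change 0.70, SE 0.040, limma adjusted p = 0.00387). MLLT1 had 0.413 and 0.384 FPKM after washout, 0.404 and 0.358 FPKM with IAA, and 0.412 and 0.427 FPKM in control, under the filter of the test. Its transcript level does not check the loss of the fused protein, which was not measured in these libraries.

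The E-box CACGTG, which reads the same on both strands, was searched in RefSeq promoter windows of build GRCh38.p14, from 250 bases before to 50 bases after each annotated start. Of the 50 members 42 had a window, and 21 of these, or 50%, held the box. The box was found in 13.4% of 4910 tested protein-coding genes with a window, in 29% of 107 other ribosome biogenesis genes, and in 6.78% of 59 cytosolic ribosomal protein genes. The set was chosen to hold genes driven by MYC, which binds this box, so its share is not independent of that choice. The median GC content of the windows was 63% for the members and 65.7% for the tested protein-coding genes. Windows of 30 bases around the box are shown for the members that fell with IAA and held it, and for ODC1, whose level hardly moved, with the box in capitals. They lie at chr10:68956604-68956633 on the plus strand for DDX21, at chr2:130342682-130342711 and chr2:130342900-130342929 on the plus strand for IMP4, at chr17:4555340-4555369 on the minus strand for MYBBP1A, and at chr2:68157885-68157914 on the plus strand for PNO1. The others lie at chr21:45541797-45541826 on the minus strand for SLC19A1, at chr2:28894658-28894687 on the plus strand for WDR43, and at chr2:10448024-10448053 and chr2:10447990-10448019 on the minus strand for ODC1.
DDX21: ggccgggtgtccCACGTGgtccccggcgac
IMP4, before the start: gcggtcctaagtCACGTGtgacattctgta
IMP4, after the start: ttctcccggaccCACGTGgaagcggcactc
MYBBP1A: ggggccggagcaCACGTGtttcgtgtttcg
PNO1: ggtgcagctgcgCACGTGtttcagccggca
SLC19A1: ttcgcgcccaggCACGTGttgcttcgggac
WDR43: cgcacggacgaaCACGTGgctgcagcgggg
ODC1, before the start: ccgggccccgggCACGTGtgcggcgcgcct
ODC1, after the start: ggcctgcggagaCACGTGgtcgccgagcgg
In these windows the box of DDX21 ended 26 bases before the start, while those of WDR43, PNO1, MYBBP1A and SLC19A1 began 4, 10, 28 and 33 bases after it. The box was present in 6 of the 12 members with a window that fell with IAA, in 12 of 25 that were tested and did not pass by limma, and in 3 of 5 that were too low to test. These are matches of letters in a window, not measured binding.

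The FPKM values were taken to divide reads by the whole gene span, introns included. The implied length was within 1% of the GENCODE 29 span for 43 of 49 members with a span. It was within 1% of the exon length for 0. The span was also used to set the library totals and to choose among whole-read solutions, so this match is not independent of it. On this reading long members have low FPKM, and levels are compared here between libraries within a gene. The members' mean read number per library, recovered from the FPKM steps, ranged from 15 for IPO4 to 18527.5 for NCL, with a median of 2221.58. Of the 50 members 44 averaged at least 1 FPKM and were tested, while UTP20, DDX10, RCL1, BOP1, WDR12 and IPO4 did not.

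With 3 h of IAA most ribosome biogenesis transcripts lay below their control level. Of the 44 tested members 15 fell and 0 rose at a limma adjusted p under 0.05, where 6.49% of all 8317 tested genes fell and 6.64% rose. At an unadjusted p under 0.05 limma had 27 members lower and 0 higher, against 31.6% of all tested genes in either direction. The log2 change was below 0 for 43 of the 44, against 45.7% of all tested genes. Its median was -0.16 over the members and 0.01 over all tested genes. Both IAA libraries lay below both control libraries for 36 of the 44, against 28.2% of all tested genes, and above both for 0, against 33.7%. The IAA pair was the lowest of the 6 libraries for 33 of the 44, against 22.3% of all tested genes. Relative to the control mean, the median member stood at 0.867 and 0.861 in the IAA libraries and at 0.996 and 1.004 in the control libraries. Without any one of the 2 IAA or 2 control libraries 0 of the members passed, without either washout library 6 did, and the log2 change stayed below 0 for 39 to 43 of the 44. A fit by limma's voom on the recovered reads, which also took in the 6 members under the FPKM filter, called 38 of 50 lower and 0 higher, where 12.8% and 10.9% of 14715 genes were called.

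**Figure D1:**
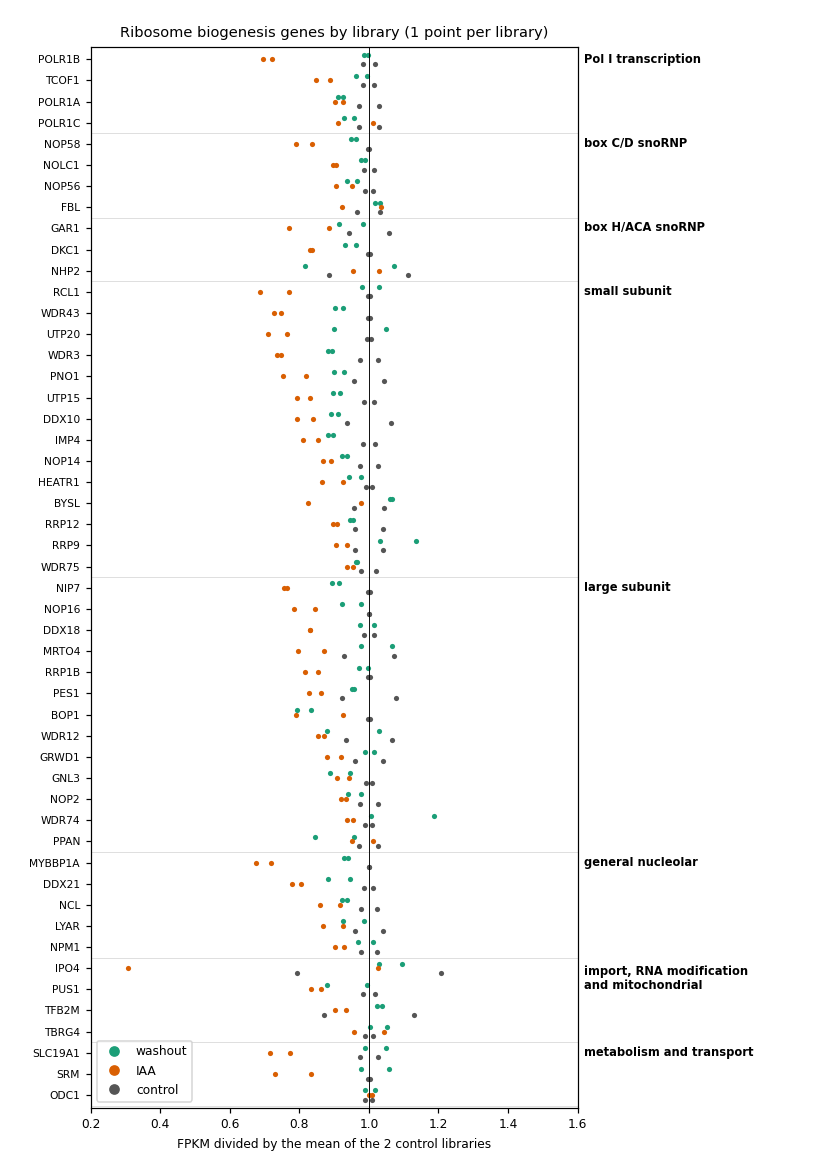
FPKM of each member in each library divided by the mean of the 2 control libraries (x axis, linear), with 1 point per library, in washout, IAA and control colours, and members grouped by role (y axis). The IAA points lie left of the control points for 41 of the 50 members, against 19.5% of the 21707 genes above 0 in any library. The washout points mostly lie between the IAA points and 1.

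Among the genes of RNA polymerase I transcription 1 of 4 tested members fell with IAA by limma, where 6.49% of all tested genes fell. POLR1B (ENSG00000125630.11), a catalytic subunit of the polymerase, had 5.31 and 5.38 FPKM after washout, 3.89 and 3.74 FPKM with IAA, and 5.48 and 5.29 FPKM in control. The washout and control values overlapped, and both IAA values lay below them. It fell to 0.708 of the control mean with IAA (log2 change -0.41, SE 0.037, limma adjusted p = 0.00968) and was 1.40 times the IAA mean after washout (log2 change 0.40, SE 0.037, limma adjusted p = 0.00996). TCOF1, the nucleolar treacle protein that supports rDNA transcription, had 4.09 and 3.96 FPKM after washout, 3.65 and 3.49 FPKM with IAA, and 4.18 and 4.05 FPKM in control, with no overlap between IAA and control, and missed the threshold (limma adjusted p = 0.0577 for IAA against control). POLR1A, the largest subunit, and POLR1C, shared with RNA polymerase III, stood at 0.915 and 0.962 of the control mean with IAA and did not pass by limma, while voom called POLR1A lower (adjusted p = 0.0143) and TCOF1 as well (adjusted p = 0.000374).

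In the box C/D class 1 of 4 members fell with IAA by limma, against 6.49% of all tested genes. NOP58, a core protein of these RNPs, had 7.09 and 7.19 FPKM after washout, 6.25 and 5.91 FPKM with IAA, and 7.49 and 7.46 FPKM in control. The 3 groups did not overlap, with washout between IAA and control. The log2 change of NOP58 was -0.26 for IAA against control (SE 0.039, limma adjusted p = 0.0235) and 0.20 for washout against IAA (SE 0.039, limma adjusted p = 0.0379). NOP56, its paralogue and the most abundant member of the class per length of span, had 73.4 and 75.7 FPKM after washout, 74.6 and 71.0 FPKM with IAA, and 77.6 and 79.4 FPKM in control. The IAA and control values did not overlap, and the log2 change of -0.11 did not pass (SE 0.043, limma adjusted p = 0.171). FBL, the methyltransferase of the class, and NOLC1, a chaperone of nucleolar RNPs, stood at 0.978 and 0.900 of the control mean with IAA and did not pass by limma, with adjusted p of 0.799 and 0.0614. Voom called NOP56 and NOLC1 lower with IAA, with adjusted p of 0.00515 and 6.74e-05.

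In the box H/ACA class 1 of 3 members fell with IAA by limma, against 6.49% of all tested genes. DKC1, the pseudouridine synthase, had 17.3 and 17.9 FPKM after washout, 15.6 and 15.5 FPKM with IAA, and 18.5 and 18.7 FPKM in control, again with washout between the others and no overlap. Its log2 change was -0.25 for IAA against control (SE 0.038, limma adjusted p = 0.0235) and 0.17 for washout against IAA (SE 0.038, limma adjusted p = 0.0471). Of its partners in the RNP, GAR1 stood at 0.827 and NHP2 at 0.991 of the control mean with IAA, and neither passed by limma, while voom called GAR1 lower (adjusted p = 0.0223). The spread of NHP2 was wide, with 7.20 and 9.04 FPKM in the control libraries alone, and the interval of its log2 change ran from -0.40 to 0.39.

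In the small subunit class 5 of 11 tested members fell with IAA by limma, where 6.49% of all tested genes fell. WDR43 (ENSG00000163811.7), a processome protein that also takes part in transcription of the rRNA precursor, had 6.51 and 6.69 FPKM after washout, 5.40 and 5.25 FPKM with IAA, and 7.23 and 7.20 FPKM in control. It fell to 0.737 of the control mean (log2 change -0.38, SE 0.035, limma adjusted p = 0.0103) and was 1.24 times the IAA mean after washout (log2 change 0.27, SE 0.035, limma adjusted p = 0.0182). WDR3, another repeat protein of the processome, had 5.29 and 5.36 FPKM after washout, 4.40 and 4.47 FPKM with IAA, and 6.14 and 5.83 FPKM in control. In both genes washout lay between the other groups without overlap. WDR3 fell to 0.741 of the control mean (log2 change -0.36, SE 0.038, limma adjusted p = 0.0124) and was 1.20 times the IAA mean after washout (log2 change 0.22, SE 0.038, limma adjusted p = 0.0298).

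UTP15, a processome subunit, had 5.72 and 5.59 FPKM after washout, 4.94 and 5.17 FPKM with IAA, and 6.13 and 6.33 FPKM in control. Its log2 change was -0.26 with IAA (SE 0.039, limma adjusted p = 0.0240) and 0.14 for washout against IAA, which did not pass (limma adjusted p = 0.0863). IMP4, a processome protein that binds the snoRNA of that complex, had 20.2 and 19.9 FPKM after washout, 18.3 and 19.3 FPKM with IAA, and 22.9 and 22.2 FPKM in control. Both genes had the 3 groups apart in the order IAA, washout, control. IMP4 fell with IAA (log2 change -0.25, SE 0.044, limma adjusted p = 0.0314) and after washout was 1.07 times the IAA mean (limma adjusted p = 0.226). PNO1, a factor of late small subunit assembly, had 4.62 and 4.48 FPKM after washout, 4.08 and 3.76 FPKM with IAA, and 5.20 and 4.77 FPKM in control. Its log2 change with IAA was -0.28 (SE 0.056, limma adjusted p = 0.0409), and that of washout against IAA, 0.18, did not pass (limma adjusted p = 0.106). The PNO1 values fell into the same order of groups without overlap. The other 6 tested members, NOP14, HEATR1, BYSL, RRP12, RRP9 and WDR75, stood between 0.878 and 0.945 of the control mean with IAA.

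In the large subunit group 4 of 11 tested members fell with IAA by limma, against 6.49% of all tested genes. NIP7 (ENSG00000132603.9), a pre-ribosome assembly factor, had 39.8 and 39.0 FPKM after washout, 32.9 and 33.3 FPKM with IAA, and 43.4 and 43.7 FPKM in control, without overlap. It fell to 0.760 of the control mean (log2 change -0.39, SE 0.036, limma adjusted p = 0.0103) and was 1.19 times the IAA mean after washout (log2 change 0.24, SE 0.036, limma adjusted p = 0.0221). DDX18, a nucleolar helicase, had 7.33 and 7.63 FPKM after washout, 6.24 and 6.25 FPKM with IAA, and 7.42 and 7.62 FPKM in control. Here the washout and control values overlapped, and only the IAA pair stood apart. The log2 change of DDX18 was -0.23 with IAA (SE 0.038, limma adjusted p = 0.0267) and 0.23 for washout against IAA (SE 0.038, limma adjusted p = 0.0273). RRP1B, a nucleolar protein of large subunit precursors, had 6.09 and 5.92 FPKM after washout, 4.98 and 5.20 FPKM with IAA, and 6.08 and 6.12 FPKM in control, with the IAA pair alone apart. Its log2 change was -0.22 with IAA (SE 0.037, limma adjusted p = 0.0288) and 0.20 for washout against IAA (SE 0.037, limma adjusted p = 0.0337). NOP16, a large subunit factor, had 27.2 and 25.7 FPKM after washout, 23.6 and 21.8 FPKM with IAA, and 27.9 and 27.9 FPKM in control, without overlap. It fell with IAA (log2 change -0.29, SE 0.055, limma adjusted p = 0.0385) and did not pass for washout against IAA (log2 change 0.21, limma adjusted p = 0.0683). The other 7 tested members ranged from MRTO4 at 0.833 to PPAN at 0.981 of the control mean with IAA. Among them PES1, of the complex it forms with BOP1 and WDR12, stood at 0.845, and GNL3, the GTPase nucleostemin, at 0.926.

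Among the general nucleolar proteins 2 of 5 fell with IAA by limma, where 6.49% of all tested genes fell. MYBBP1A (ENSG00000132382.10), a MYB-binding nucleolar protein linked to rRNA transcription and processing, had 10.2 and 10.0 FPKM after washout, 7.31 and 7.77 FPKM with IAA, and 10.8 and 10.8 FPKM in control. Among the tested members it had the lowest ratio to control, 0.697, with a log2 change of -0.47 (SE 0.042, limma adjusted p = 0.00966). After washout it was 1.34 times the IAA mean (log2 change 0.38, SE 0.042, limma adjusted p = 0.0131). DDX21, a helicase of rRNA transcription and processing, had 27.2 and 29.1 FPKM after washout, 23.9 and 24.8 FPKM with IAA, and 31.2 and 30.4 FPKM in control. For both genes washout lay between IAA and control without overlap. DDX21 fell to 0.792 of the control mean (log2 change -0.33, SE 0.050, limma adjusted p = 0.0242), and its log2 change of 0.20 for washout against IAA did not pass (SE 0.050, limma adjusted p = 0.0643). NCL, the nucleolin gene and the member with the most reads, had 36.3 and 36.9 FPKM after washout, 36.01 and 33.8 FPKM with IAA, and 38.4 and 40.3 FPKM in control, and its log2 change of -0.17 with IAA missed the threshold (SE 0.050, limma adjusted p = 0.0969). The 3 groups of NCL values did not overlap, with washout between the others. NPM1, nucleophosmin, stood at 0.915 and LYAR at 0.896 of the control mean with IAA. Reads of NPM1 are uncertain, since 45 pseudogenes carry its name in GENCODE 29. Fewer carry the names of DDX18 (5), NIP7 and NOP56 (3 each), NHP2, DDX10, PES1, NCL and SRM (2 each) and LYAR (1). Of these DDX18 and NIP7 were among the members that fell with IAA by limma.

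The import, RNA modification and mitochondrial genes had 0 of 3 tested members called with IAA by limma, where 6.49% of all tested genes fell and 6.64% rose. At an unadjusted p under 0.05 limma had 1 lower, against 31.6% of all tested genes in either direction. Voom called 1 of 4 lower, PUS1 (adjusted p = 0.00135), where 12.8% of genes were called lower. TBRG4, a mitochondrial RNA-binding protein, had 10.9 and 10.4 FPKM after washout, 10.8 and 9.92 FPKM with IAA, and 10.2 and 10.5 FPKM in control. All 3 groups overlapped, and the interval of its log2 change with IAA ran from -0.14 to 0.14. PUS1, a tRNA pseudouridine synthase, stood at 0.849 of the control mean with IAA and TFB2M, a mitochondrial transcription factor, at 0.918. Of the metabolic genes SLC19A1, the reduced folate carrier, had 1.47 and 1.38 FPKM after washout, 1.08 and 1.0 FPKM with IAA, and 1.43 and 1.36 FPKM in control, with only the IAA pair apart. It fell to 0.745 of the control mean (log2 change on the FPKM + 1 scale -0.23, SE 0.042, limma adjusted p = 0.0333) and was 1.37 times the IAA mean after washout (log2 change 0.25, SE 0.042, limma adjusted p = 0.0279). SRM, spermidine synthase, had 14.8 and 13.6 FPKM after washout, 11.7 and 10.2 FPKM with IAA, and 13.9 and 14.01 FPKM in control. The IAA pair was again the lowest, but its log2 change of -0.33 missed the threshold (SE 0.075, limma adjusted p = 0.0544), while that of washout against IAA passed (0.35, SE 0.075, limma adjusted p = 0.0456). ODC1, the enzyme of the first step of polyamine synthesis and a classical MYC target, had 63.2 and 65.1 FPKM after washout, 63.9 and 64.4 FPKM with IAA, and 64.5 and 63.2 FPKM in control. Its groups overlapped, and the interval of its log2 change with IAA was -0.09 to 0.10.

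**Figure D2:**
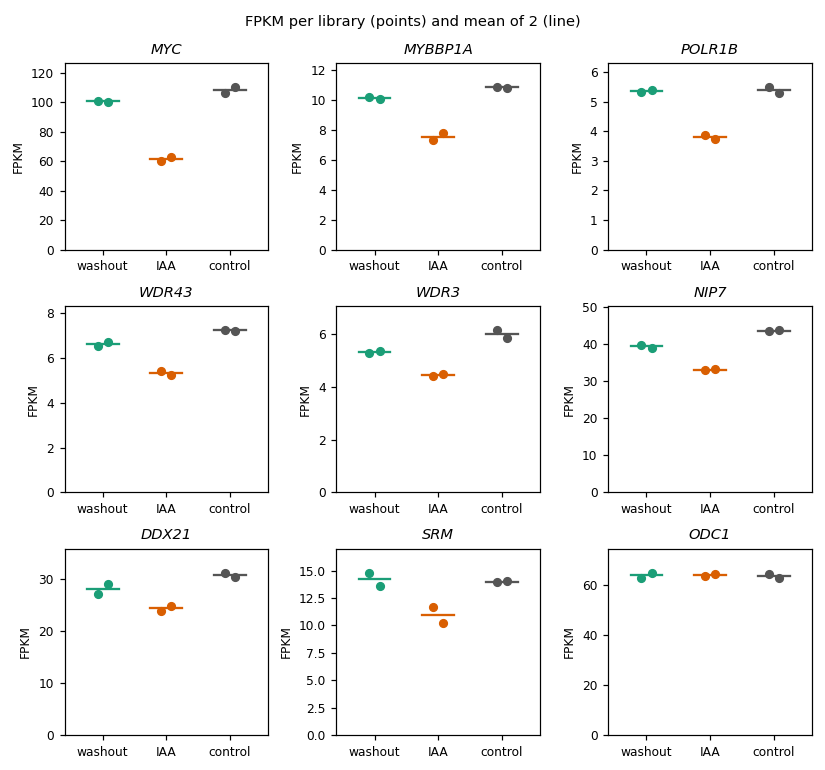
FPKM (y axis, from 0) per library as points and the mean of 2 libraries as a line, for washout, IAA and control, of MYC and 8 members. The IAA pair is the lowest in each panel except that of ODC1, where the 3 groups overlap.

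The 6 members under the FPKM filter could be followed in recovered reads. UTP20, a large scaffold of the processome, had 1379 and 1604 reads after washout, 1071 and 1177 reads with IAA, and 1532 and 1529 reads in control, and voom called it lower with IAA (log2 change -0.48, adjusted p = 3.54e-06). RCL1, a small subunit processing factor, had 437 and 456 reads after washout, 301 and 344 reads with IAA, and 441 and 448 reads in control (voom log2 change -0.49 with IAA, adjusted p = 0.000757). In both the IAA pair stood apart from the other 4 libraries. DDX10 and WDR12 were called lower with IAA by voom as well, with log2 changes of -0.33 and -0.25 and adjusted p of 0.00473 and 0.0147. BOP1, with 282 and 267 reads after washout, 263 and 314 reads with IAA, and 337 and 338 reads in control, was not called by voom in any comparison. BOP1 had no span in GENCODE 29, so its reads are the smallest whole solution and may be understated. IPO4, a nuclear import receptor, had 17 and 18 reads after washout, 5 and 17 with IAA, and 13 and 20 in control, too few to show a difference of the size seen in the other members.

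After 48 h of washout most tested members had a higher mean than with IAA, and 11 passed the test. Of the 44 tested, these 11 rose and 0 fell, where 7.73% of all tested genes rose and 6.65% fell, and at an unadjusted p under 0.05 limma had 20 higher and 0 lower, against 32.9% of all tested genes in either direction. They were POLR1B, MYBBP1A, SLC19A1, SRM, WDR43, DDX18, WDR3, NIP7, RRP1B, NOP58 and DKC1, at 1.14 to 1.40 times the IAA mean. Both washout libraries lay above both IAA libraries for 35 of the 44, against 31.4% of all tested genes, and below both for 0, against 30.7%. The median log2 change was 0.14 over the members and 0.00 over all tested genes, and the 5 members below 0 were POLR1C, NHP2, GNL3, PPAN and ODC1. This comparison shares its IAA libraries with that of IAA and control, so the 2 are not independent. Without any one of the IAA or washout libraries 0 members passed and without either control library 2 did, while voom on the recovered reads called 25 of 50 higher and 0 lower, where 12.9% and 12.3% of genes were called. Washout and the 48 h of further culture cannot be told apart in this design.

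**Figure D3:**
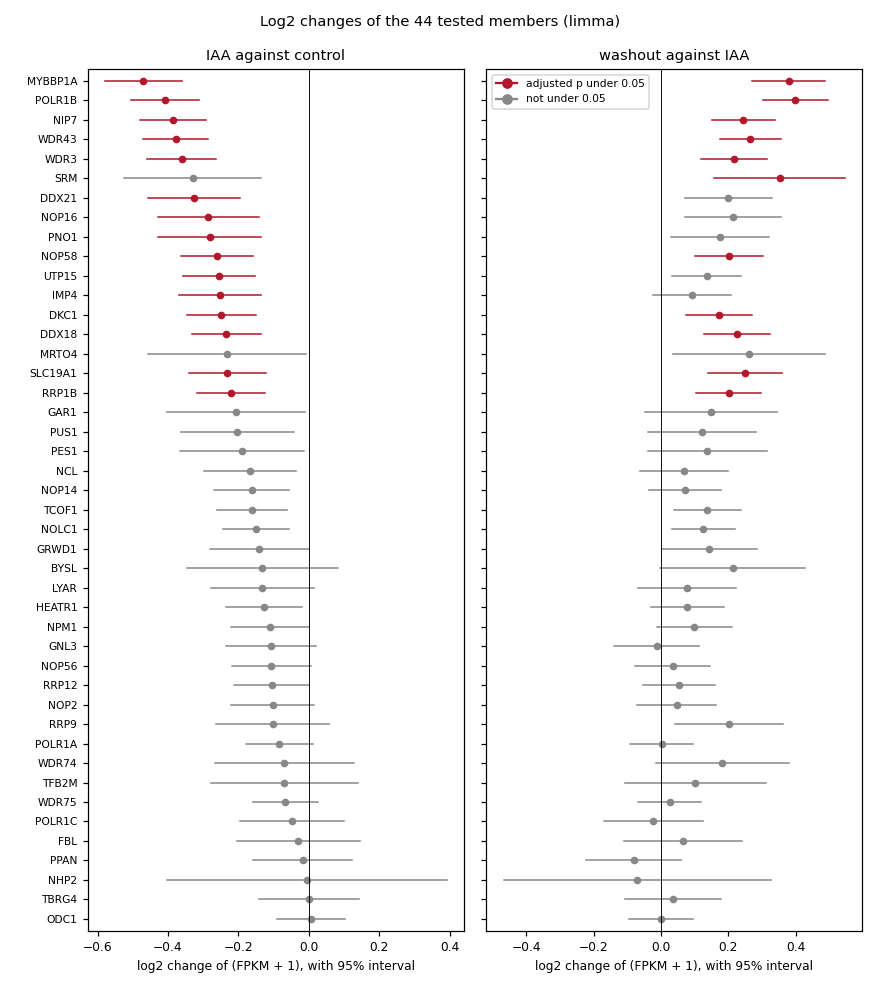
Log2 change of (FPKM + 1) with its 95% interval (x axis) of the 44 tested members, for IAA against control (left) and washout against IAA (right), sorted by the change with IAA. Red marks a limma adjusted p under 0.05: 15 members on the left, all below 0, and 11 on the right, all above 0.

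Between washout and control 0 members and 0 of all 8317 genes passed by limma. At an unadjusted p under 0.05 limma had 5 of the 44 members lower and 0 higher, against 9.02% of all tested genes in either direction. Both washout libraries still lay below both control libraries for 21 of the 44 members, against 17.8% of all tested genes, and above both for 1, against 24.4%. The median member stood at 0.953 and 0.964 of the control mean in the washout libraries, while the median of all tested genes stood at 1.013 and 1.005. The median log2 change was -0.06 over the members. Voom called DDX21 (adjusted p = 0.0328) and WDR3 (adjusted p = 0.0436) lower after washout and 0 members higher, where 0.469% and 0.231% of genes were called. At the other end the tested members POLR1B, DDX18, GRWD1 and ODC1 were within 1% of the control mean, with intervals of the log2 change of -0.11 to 0.09, -0.11 to 0.09, -0.14 to 0.14 and -0.09 to 0.10. MYC stood at 0.931 of the control mean after washout and did not pass (limma adjusted p = 0.554).

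A list of 124 other ribosome biogenesis genes, of which 107 were tested, had 16 lower and 1 higher with IAA by limma. Of all tested genes 6.49% fell and 6.64% rose. The list's median log2 change was -0.09. After washout 12 of the list rose and 1 fell against IAA, where 7.73% of all tested genes rose and 6.65% fell. Its median was then 0.08. RRP7A, a small subunit processing factor, had 11.9 and 12.2 FPKM after washout, 9.31 and 9.15 FPKM with IAA, and 12.4 and 12.6 FPKM in control (log2 change with IAA -0.40, SE 0.036, limma adjusted p = 0.00968). URB2, a large subunit factor, had 3.26 and 3.12 FPKM after washout, 1.93 and 2.23 FPKM with IAA, and 3.13 and 3.22 FPKM in control (log2 change with IAA -0.44, SE 0.057, limma adjusted p = 0.0170). In both genes the IAA pair stood apart from the other 4 libraries. NOL6 and KRR1, of the small subunit, also fell with IAA, to 0.775 and 0.751 of the control mean, and RRS1, of the large subunit, was 1.31 times the IAA mean after washout. RIOK2, a kinase of late small subunit maturation, was the one call in the other direction, at 1.26 times the control mean with IAA (log2 change 0.24, limma adjusted p = 0.0291) and 0.813 of the IAA mean after washout (limma adjusted p = 0.0362).

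The cytosolic ribosomal protein genes, which encode the structural proteins of the ribosome, had a median log2 change of 0.01 with IAA. Of 71 tested 0 passed in either direction by limma, where 6.49% of all tested genes fell and 6.64% rose. By limma 2 were lower and 7 higher at an unadjusted p under 0.05, against 31.6% of all tested genes in either direction. Voom called 3 lower and 3 higher, where 12.8% and 10.9% of genes were called. After washout RPL37 alone passed by limma, at 0.833 of the IAA mean, where 7.73% of all tested genes rose and 6.65% fell. Of 25 MYC targets outside ribosome biogenesis 4 fell and 0 rose with IAA by limma, against the same 6.49% and 6.64%. The 4 that fell included PPAT and PAICS of purine synthesis and CTPS1 of pyrimidine synthesis, at 0.744, 0.840 and 0.822 of the control mean. TFAP4, a transcription factor, was the other, at 0.567. After washout PAICS, CTPS1, PPAT and the cell cycle kinase CDK4 rose to 1.20 to 1.25 times the IAA mean. The other targets of this list did not pass, where 7.73% of all tested genes rose and 6.65% fell. No difference between these lists was tested.

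**Figure D4:**
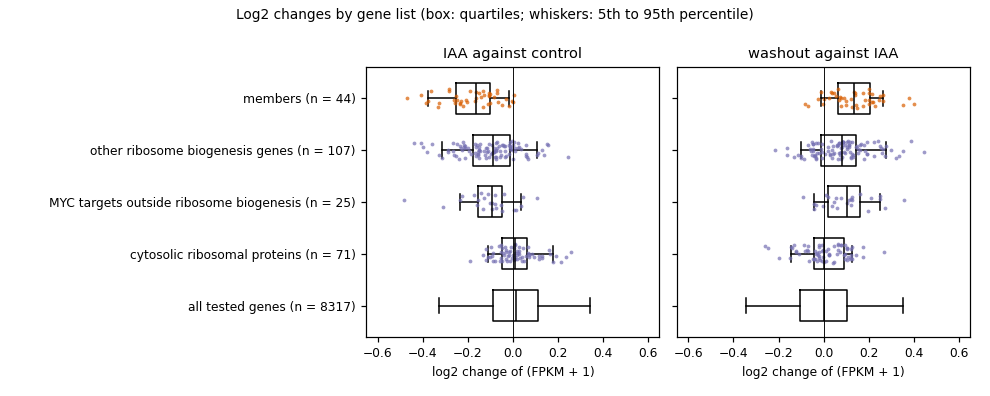
Log2 change of (FPKM + 1) (x axis) by gene list (y axis) for IAA against control (left) and washout against IAA (right). Points are genes, boxes the quartiles and whiskers the 5th to 95th percentile. The members' median is -0.16 on the left and 0.14 on the right, and that of the ribosomal proteins lies near 0 in both.

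Some features of the members were not used in their choice. In GENCODE 29 a snoRNA gene lay inside 10 of 49 members on the same strand, or 20.4%, against 2.19% of 6311 tested protein-coding genes. The hosts were NOP56, NOP58, GNL3, WDR43, NCL, TBRG4, DKC1, PPAN, ODC1 and POLR1C, with 30 snoRNA genes in all. Of these hosts NOP58, WDR43 and DKC1 were among the 15 that fell with IAA. Exons of 23 members overlapped another gene's exons, and 8 of these were among the 15, namely MYBBP1A, WDR3, NIP7, UTP15, IMP4, SLC19A1, NOP16 and PNO1. Since the sources used here do not say whether reads were counted by strand, the values of overlapping genes are uncertain. The other 7 of the 15, POLR1B, WDR43, DKC1, NOP58, DDX21, DDX18 and RRP1B, had no such overlap, though 5 pseudogenes carry the name of DDX18.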

How the data were processed

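Poly(A)-selected RNA of 6 libraries was sequenced. The authors deposited FPKM per gene, and per the submitters' processing notes HISAT, Bowtie2, HTSeq and edgeR were used on hg19, with versions, roles and annotation not given in the sources used here. Groups were taken from the sample titles, and 0 columns of samples were left unused. The test was that of limma (version 3.58.1, under R version 4.3.3), applied to log2(FPKM + 1) of the 8317 genes that averaged 1 FPKM or more, with a variance trend, 3 group means, 3 residual and 1.81 prior degrees of freedom, two-sided, Benjamini-Hochberg adjusted over all genes tested and called under 0.05. Fold changes of low genes are understated on this scale. SE and 95% intervals come from this fit, and ratios are of mean FPKM.

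Values were whole multiples of the value of 1 read, and whole reads were recovered for 99.56% of 21707 genes above 0 (tolerance 0.02 reads). The gene span of GENCODE 29 set them for 18776 genes, and 2250 and 585 were set to the nearest and smallest whole solution. Genes with a mean of at least 10 reads (14715) entered limma's voom with trimmed-mean scaling as an alternative. Other alternatives were pseudocounts of 0.1 and 5, filters of 0.1 and 5 FPKM or none, rescaling to TPM, a replicate block and each library left out. Scripts were tested on simulated data. The members and lists were chosen with earlier results of these data known. Full values are given for members called by limma in any comparison and for the member of each role with the highest mean FPKM, and from the other ribosome biogenesis list for the 4 smallest p-values per comparison. TCOF1, given by library though outside this rule, and other members named by a ratio were chosen after their values were seen. The labels give no batch.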

Additional observations from a re-analysis of the deposited data

How the results depend on the processing

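In the members, no alternative turned a call to the other direction. Pseudocounts of 0.1 and 5 kept the same 15 and 11 calls. With them 1093 and 1095 of 8317 genes were called for IAA against control, and 1188 and 1180 for washout against IAA. Other filters and TPM gave 12 to 18 of 31 to 50 tested members for IAA against control and 8 to 14 for washout against IAA. With these settings 501 to 1210 and 548 to 1255 of 3350 to 21707 tested genes were called. Voom on the recovered reads called 38, 25 and 2 members for IAA against control, washout against IAA and washout against control, and 3493, 3712 and 103 of all genes. Libraries with the same replicate number showed no shared deviation over genes (correlations of deviations 0.043, -0.027 and 0.006). This does not settle whether they were made as pairs. A fit with the replicate block called 6 and 4 members and 486 and 532 of all genes for the first 2 comparisons. Leaving out 1 library at a time gave 0 to 6 members and 57 to 538 genes for IAA against control, 0 to 2 members and 42 to 427 genes for washout against IAA, and 0 to 1 genes for washout against control. The called members then had a highest limma adjusted p of 0.0712 to 0.151 with IAA and 0.0651 to 0.166 after washout. A filter of 5 FPKM called 501 and 548 of all genes against 1092 and 1196, as fewer genes were tested. For washout against control, no filter gave 48 genes and a filter of 0.1 FPKM with a pseudocount of 0.1 gave 27; the cause was not tested. Of all genes called with IAA 50.5% were higher, and 38.8% after rescaling to TPM; for washout against IAA the shares were 53.8% and 66.6%. IPO4, at 15 reads on average, was too shallow to compare.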
